A study of Homo sapiens with 6 samples.

Results

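Transcripts of 10 glutamate receptor genes were measured in human astrocytes kept in alginate capsules and exposed to an inflammatory mixture. The 10 genes were taken by symbol from the 30949 genes of the deposited table, and each had a row. They are the AMPA receptor subunits GRIA1, GRIA2, GRIA3 and GRIA4, the kainate receptor subunits GRIK2, GRIK3, GRIK4 and GRIK5, and the metabotropic receptors GRM3 and GRM5. Of these, 8 had enough counts to be tested, and GRIK5 and GRM5 did not. The cells were wild-type astrocytes made from WTC11, an established line of human induced pluripotent stem cells, so all 6 libraries share 1 genetic background. They grew as floating aggregates within the capsules. In the ITC group, 3 cultures received complement C1q with the cytokines TNF alpha and interleukin 1 alpha for 48 hours, and in the vehicle group 3 cultures received vehicle only. Polyadenylated RNA was sequenced to 17808993 to 19327421 counts per library in ITC and 17398921 to 29941685 in vehicle.

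Glutamate is the main excitatory transmitter of the brain. AMPA and kainate receptors are ion channels of 4 subunits that open when they bind it, whereas metabotropic receptors signal through G proteins. Astrocytes carry receptors of these classes, and their activation raises calcium in the cell or changes cyclic AMP signaling. Which AMPA subunits a cell makes matters for the channel, because receptors that hold edited GRIA2 pass little calcium, while those without it pass calcium.

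That property rests on 1 codon of the pore loop, the Q/R site. There the genome encodes glutamine in each AMPA subunit, and the adenosine deaminase ADARB1 edits the GRIA2 transcript so that arginine is made. The stretches below show that codon and its surroundings, since editing acts on the transcript and not on these genomic letters. They are from GENCODE 29 transcripts (GRCh38), with the codon in capitals. The codon lies on chromosome 5 at 153706042 to 153706044 in exon 11 for GRIA1, on chromosome 4 at 157336722 to 157336724 in exon 11 for GRIA2, on chromosome X at 123417753 to 123417755 in exon 11 for GRIA3 and on chromosome 11 at 105924744 to 105924746 in exon 12 for GRIA4, counting exons in the transcript with the longest open reading frame. The kainate subunit GRIK2, also known to be edited here, has it on chromosome 6 at 101924713 to 101924715 in exon 15. All 5 genes lie on the plus strand.
GRIA1: ggagccttcatgCAGcaaggatgtgacatt
GRIA2: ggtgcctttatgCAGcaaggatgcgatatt
GRIA3: ggtgcctttatgCAGcaaggatgtgatatt
GRIA4: ggtgcttttatgCAGcaaggatgtgacatt
GRIK2: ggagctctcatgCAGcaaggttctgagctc
The codon was CAG in each of these reference transcripts. Gene counts do not separate edited from unedited transcripts. Reads were not examined, and editing was not measured.

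Among the AMPA subunits, GRIA1 and GRIA4 fell steeply in ITC, GRIA3 rose slightly at the edge of the threshold, and GRIA2 was not called. Of the 16756 genes tested, edgeR called 39.4% at an adjusted p under 0.05, with 20.4% higher and 19% lower in ITC. GRIA1 encodes the subunit GluA1, which can form channels that pass calcium (chromosome 5, 153489615 to 153813869). It had 4, 26 and 25 counts in ITC replicates 1, 2 and 3, against 619, 621 and 813 in vehicle replicates 1, 2 and 3. As CPM (counts per 1000000 counts of a library, scaled with TMM factors), it was at 0.242, 1.44 and 1.47 in ITC and 28.7, 32.5 and 25.1 in vehicle. Every ITC library was far below every vehicle library, and ITC replicate 1 was the lowest. The mean was 1.05 ± 0.702 CPM in ITC and 28.8 ± 3.68 CPM in vehicle (SD, n = 3 each). This is a log2 change of ITC over vehicle of -4.75 ± 0.35 (SE; 95% interval -5.51 to -3.99; edgeR adjusted p = 6.92e-08), or 26.9-fold lower in ITC.

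GRIA4, which encodes a subunit of fast AMPA channels (chromosome 11, 105609994 to 105982092), had 13, 14 and 10 counts in ITC against 189, 210 and 291 in vehicle. Its CPM averaged 0.718 ± 0.111 in ITC and 9.58 ± 1.23 in vehicle (SD, n = 3 each). The groups did not overlap. The log2 change was -3.72 ± 0.28 (95% interval -4.33 to -3.12; edgeR adjusted p = 8.40e-08), or 13.2-fold lower in ITC.

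GRIA3, a subunit that often pairs with GRIA2 in neurons (chromosome X, 123184153 to 123490915), was at 15.1, 17.8 and 15.6 CPM in ITC against 10.5, 13.3 and 11.2 CPM in vehicle. Every ITC library was above every vehicle library. The log2 change of 0.47 ± 0.18 (95% interval 0.09 to 0.85) lay at the edge of the threshold (edgeR adjusted p = 0.0493). The call was kept in 3 of 16 other analyses and lost in 13, with adjusted p between 0.0169 and 0.310, while the change stayed positive under every scaling tried. It was lost on leaving out ITC replicate 2 (edgeR adjusted p = 0.184) or 3 (0.0661), or vehicle replicate 1 (0.149), 2 (0.0816) or 3 (0.126). The authors' deposited table, made with DESeq2, gives GRIA3 an adjusted p of 0.0708.

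GRIA2, the subunit that sets calcium permeability (chromosome 4, 157204182 to 157366075), was at 5.15, 8.93 and 8.13 CPM in ITC against 4.59, 6.28 and 8.65 CPM in vehicle. The groups overlapped, and vehicle replicate 3 was above 2 of the ITC libraries. The log2 change was 0.18 ± 0.27 (edgeR adjusted p = 0.635), with its sign reversed when libraries were scaled by size alone (-0.042). The 95% interval of -0.41 to 0.77 does not reach the falls of GRIA1 or GRIA4, whose intervals end at -3.99 and -3.12.

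**Figure D1:**
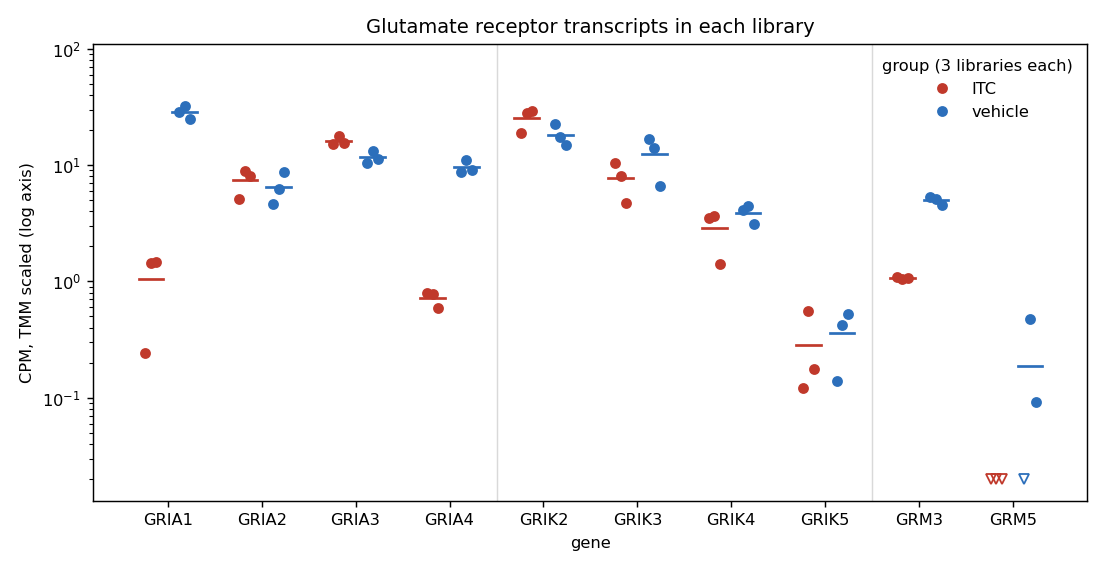
CPM (TMM scaled, log axis) of the 10 receptor genes in each of 3 ITC libraries (red, left) and 3 vehicle libraries (blue, right), with the group mean as a bar; open triangles at the bottom stand for libraries with no count. GRIA1, GRIA4 and GRM3 lie apart and lower in ITC, GRIA3 lies slightly higher in ITC, and the other genes overlap.

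The makeup of AMPA subunit transcripts was not the same in ITC as in vehicle. It was described with FPKM, the authors' values per kilobase of gene length, since levels of different genes can only be compared per length. GRIA1 made up 1.05%, 4.71% and 5.42% of the summed AMPA subunit FPKM in ITC replicates 1, 2 and 3, against 55.6%, 52.5% and 47.8% in vehicle. GRIA3 made up 77.2%, 68.5% and 67.4% in ITC, against 23.9%, 25.4% and 25.1% in vehicle. GRIA1 was thus the leading AMPA subunit in each vehicle library and GRIA3 in each ITC library. The share of GRIA2 was 23.2% ± 3.54 in ITC and 10.1% ± 3.47 in vehicle (SD, n = 3 each), and that of GRIA4 was 2.05% ± 0.489 in ITC and 13.1% ± 0.312 in vehicle. The summed AMPA subunit FPKM was 3.64 ± 0.48 FPKM in ITC and 7.42 ± 0.776 FPKM in vehicle (SD, n = 3 each). GRIA2 itself was not called, at 0.852 ± 0.22 FPKM in ITC and 0.741 ± 0.217 FPKM in vehicle. Its larger share in ITC is thus a share of a smaller sum and not a called rise of GRIA2. These shares are descriptions over the chosen genes and were not tested.

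**Figure D2:**
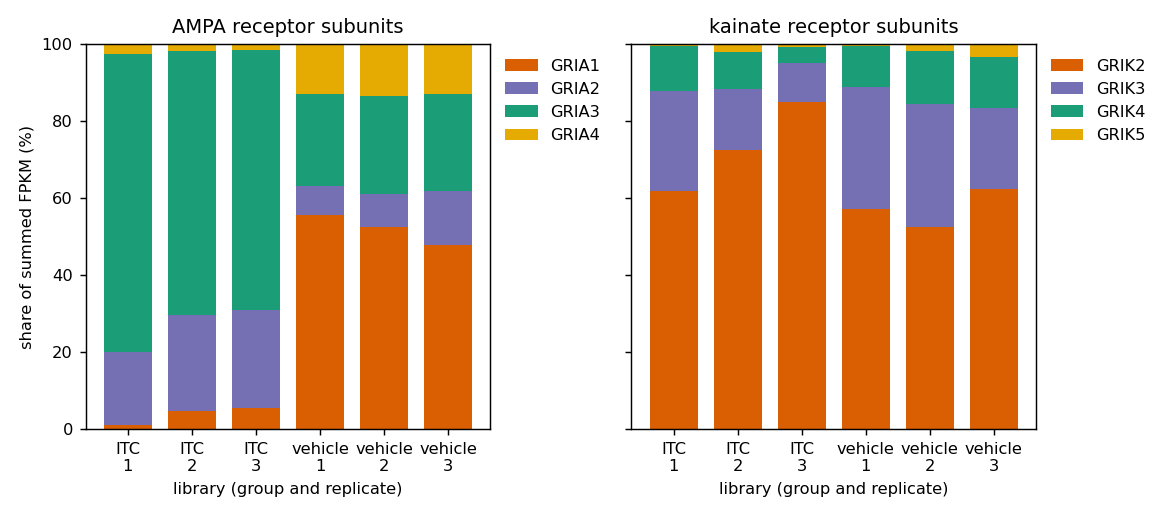
Share (%) of each subunit in the summed FPKM of AMPA subunits (left panel) and of kainate subunits GRIK2 to GRIK5 (right panel). Each library has 1 bar, with ITC left of vehicle. GRIA3 fills 67.4% to 77.2% of the AMPA bars in ITC, whereas GRIA1 fills 47.8% to 55.6% in vehicle; GRIK2 is the largest part of the kainate bars in all 6 libraries.

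No call was made among the 4 kainate subunits GRIK2 to GRIK5. The kainate subunit GRIK1 is not among these and was called lower, as given with the other receptors below. Of the 3 that were tested, edgeR called 0 at an adjusted p under 0.05, DESeq2 also called 0, and 1, GRIK2, had an unadjusted p under 0.05. GRIK2 (chromosome 6, 101181257 to 102070083), a subunit that can form kainate channels by itself, was at 18.8, 28.1 and 29.4 CPM in ITC against 22.6, 17.4 and 14.9 CPM in vehicle. ITC replicate 1 lay within the range of vehicle, and the other ITC libraries lay above it. The log2 change was 0.48 ± 0.21 (95% interval 0.04 to 0.92; edgeR adjusted p = 0.0815). GRIK2 was called without ITC replicate 1 (log2 change 0.67, adjusted p = 0.0238), without vehicle replicate 1 (0.64, adjusted p = 0.0259) and with a replicate block (0.48, adjusted p = 0.0476).

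GRIK3, a kainate subunit of low glutamate affinity (chromosome 1, 36795527 to 37034129), was at 10.5, 8.09 and 4.71 CPM in ITC against 16.7, 14.1 and 6.67 CPM in vehicle. Both groups were spread widely and overlapped through vehicle replicate 3, which was the lowest of its group. The log2 change of -0.68 ± 0.33 was not called (95% interval -1.38 to 0.02; edgeR adjusted p = 0.114). Without vehicle replicate 3 it was -1.04 and was called (adjusted p = 0.00237). It was also called with scaling by library size alone (-0.92, adjusted p = 0.0333) and with no filter on low counts (-0.71, adjusted p = 0.0101). A replicate block called GRIK3 as well (-0.66, edgeR adjusted p = 0.00448). GRIK4 (chromosome 11, 120511700 to 120988904), an auxiliary-type subunit of high affinity that needs GRIK1, GRIK2 or GRIK3 to form a channel, averaged 2.86 ± 1.26 CPM in ITC and 3.90 ± 0.691 CPM in vehicle (SD, n = 3 each), and was not called (log2 change -0.44 ± 0.35, 95% interval -1.18 to 0.30, edgeR adjusted p = 0.341). GRIK5, its close relative (chromosome 19, 41998321 to 42069498), had 2, 10 and 3 counts in ITC against 3, 8 and 17 in vehicle and was too low to be tested.

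GRIK2 made up 73.1% ± 11.5 of the FPKM summed over GRIK2, GRIK3, GRIK4 and GRIK5 in ITC and 57.4% ± 4.92 in vehicle (SD, n = 3 each). It was the leading subunit of these 4 in each library, and its lowest ITC share of 61.8% lay within the vehicle range of 52.6% to 62.4%. The FPKM summed over these 4 was 4.70 ± 0.521 in ITC and 4.35 ± 1.15 in vehicle, a difference smaller than the spread in vehicle. This sum leaves out the kainate subunit GRIK1, which was picked with its values known. GRIK1 was at 0.246 ± 0.0824 FPKM in ITC and 1.23 ± 0.137 FPKM in vehicle. Its log2 change was -2.33 ± 0.33 (edgeR adjusted p = 4.88e-05). The direction of the summed difference therefore does not carry over to a sum that includes GRIK1.

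Of the metabotropic receptors, GRM3 fell and GRM5 was near the limit of detection. GRM3 encodes mGlu3, a receptor that lowers cyclic AMP and is the main metabotropic glutamate receptor of adult astrocytes (chromosome 7, 86643914 to 86864884). It had 18, 19 and 18 counts in ITC against 114, 98 and 146 in vehicle. Its CPM was 1.09, 1.05 and 1.06 in ITC and 5.28, 5.13 and 4.51 in vehicle, so that the libraries of each group lay close together and the groups far apart. The log2 change was -2.21 ± 0.30 (95% interval -2.84 to -1.58; edgeR adjusted p = 3.10e-05), or 4.63-fold lower in ITC. Antisense transcripts cover 8.96% of its exon bases, and whether the counting used strand is not given in the sources used here.

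GRM5 encodes mGlu5, which releases calcium from stores and is known in rodents mainly from young astrocytes (chromosome 11, 88504576 to 89065945). It had 0 counts in each of the 3 ITC libraries and 0, 9 and 3 counts in vehicle replicates 1, 2 and 3. Vehicle replicate 2 held 9 of the 12 vehicle counts, and vehicle replicate 1 had none, like the ITC libraries, so no fold is given. An edgeR fit without the filter on low counts gave it an adjusted p of 0.118. The antisense gene GRM5-AS1 shares 50.4% of its exon bases, so even these few counts cannot be placed on GRM5 with certainty.

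**Figure D3:**
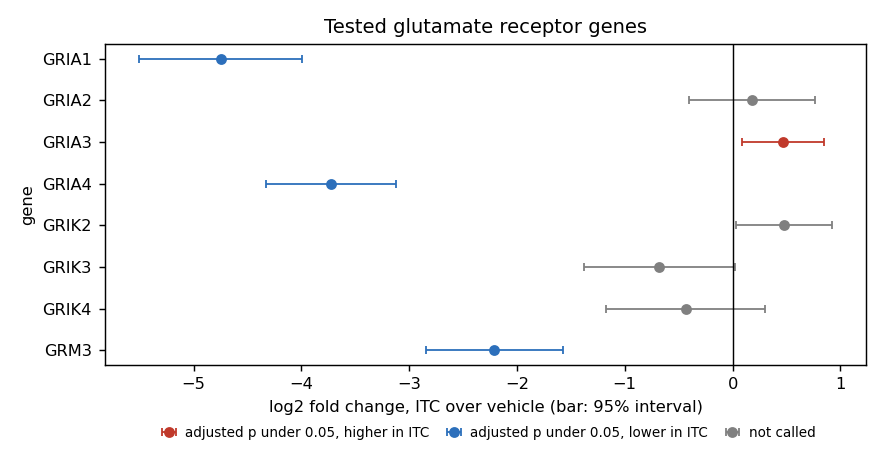
Log2 fold change of ITC over vehicle (horizontal axis) of the 8 tested receptor genes, as edgeR estimates with 95% intervals (bars), n = 3 libraries per group. GRIA1, GRIA4 and GRM3 (blue) lie between -4.75 and -2.21, GRIA3 (red) lies at 0.47 just past the threshold, and the other 4 genes (grey) were not called.

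In all, 3 of the 8 tested receptor genes were lower in ITC and 1 was higher, where 19% of all tested genes were lower and 20.4% higher. With either direction counted, 4 of 8 were called, against 39.4% of all tested genes, and the groups did not overlap in 4 of 8, against 50.1% of all. The number of calls is therefore near the background. By the size of the change, GRIA1, GRIA4 and GRM3 were among the lowest 0.46%, 1.08% and 3.55% of tested genes. Of all tested genes 3423 rose and 3176 fell, against 2662 and 4059 with upper quartile scaling and 2287 and 4801 with scaling by library size alone. The median log2 change was -0.56 over the 8 tested genes and -0.01 over all tested genes. The receptor genes were chosen with earlier results of these data known. These ranks and this median are therefore descriptions only, and no result about the group is drawn from them. The falls of GRIA1, GRIA4 and GRM3 were called in all 16 other analyses, with log2 changes on the count scale of -5.06 to -4.28, -3.96 to -3.59 and -2.44 to -2.17.

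Ordered by FPKM, GRIK2 and GRIA3 were the most abundant of the 10 genes in ITC, at 3.45 ± 0.735 and 2.57 ± 0.222, and their ranges overlapped. They were followed, with a gap below GRIA3, by GRIA2, GRIK3, GRIK4 and GRM3, in which each neighbor overlapped the next. GRM3 at 0.246 ± 0.00851 FPKM lay above GRIA1 at 0.141 ± 0.0934, which overlapped GRIA4, which overlapped GRIK5. In vehicle, GRIA1 came first at 3.86 ± 0.538 FPKM, clear of GRIK2 at 2.47 ± 0.584. From GRIK2 down through GRIA3, GRIK3, GRM3, GRIA4, GRIA2 and GRIK4 each neighbor overlapped the next, and GRIK5 lay below GRIK4. GRIA1 thus was the first of 10 in vehicle and the seventh of 10 in ITC.

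Promoters of the 3 genes that fell are shown with that of GRIA2, the AMPA subunit that was not called, since the levels of GRIA1, GRIA4 and GRM3 were lower in the same libraries. Each runs from 250 bases before to 50 after the RefSeq start nearest to the deposited gene start (GRCh38.p14, plus strand), and capitals mark motif matches. They lie at chr5:153490420-153490719 for GRIA1, chr11:105609744-105610043 for GRIA4, chr7:86643659-86643958 for GRM3 and chr4:157219870-157220169 for GRIA2. The windows of GRIA1 and GRIA2 lie downstream of the deposited starts at 153489615 and 157204182. Promoters listed numbered 2 for GRIA1, 3 for GRIA4, 1 for GRM3 and 3 for GRIA2, and only 1 window per gene was searched.
GRIA1: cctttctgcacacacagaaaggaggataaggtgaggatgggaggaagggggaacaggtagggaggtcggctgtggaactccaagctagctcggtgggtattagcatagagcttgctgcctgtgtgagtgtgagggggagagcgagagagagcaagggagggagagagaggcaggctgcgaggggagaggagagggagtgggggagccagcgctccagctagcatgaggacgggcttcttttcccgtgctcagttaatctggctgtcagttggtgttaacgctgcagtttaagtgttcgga
GRIA4: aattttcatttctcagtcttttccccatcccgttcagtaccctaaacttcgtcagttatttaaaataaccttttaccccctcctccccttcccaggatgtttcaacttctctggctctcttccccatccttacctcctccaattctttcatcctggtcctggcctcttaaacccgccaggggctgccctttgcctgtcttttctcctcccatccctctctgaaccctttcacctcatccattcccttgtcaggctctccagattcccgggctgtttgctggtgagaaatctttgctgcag
GRM3: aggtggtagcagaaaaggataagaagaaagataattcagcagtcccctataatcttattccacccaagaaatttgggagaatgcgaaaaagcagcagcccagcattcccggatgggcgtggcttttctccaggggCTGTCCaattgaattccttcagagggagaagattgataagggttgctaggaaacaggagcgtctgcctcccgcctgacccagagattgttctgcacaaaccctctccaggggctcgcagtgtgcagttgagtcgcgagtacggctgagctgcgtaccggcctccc
GRIA2: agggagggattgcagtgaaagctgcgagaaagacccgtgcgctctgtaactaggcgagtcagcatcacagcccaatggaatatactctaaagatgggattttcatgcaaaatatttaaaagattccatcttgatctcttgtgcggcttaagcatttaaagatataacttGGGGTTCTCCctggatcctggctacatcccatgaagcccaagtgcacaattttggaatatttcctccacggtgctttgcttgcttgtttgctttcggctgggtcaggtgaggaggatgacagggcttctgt
The motifs searched on both strands were the NF-kappa-B consensus, the AP-1 motif TGANTCA, the GC box GGGCGG, and the RE1 parts CAGCACC and GGACAG, bound by the neuronal gene repressor REST. They occur in 11.3%, 7.71%, 45%, 7.75% and 20.5% of the 35116 RefSeq promoters of this length. The windows of GRIA1 and GRIA4 held no match to any of the 5. GRM3 held 1 GGACAG, on the minus strand from base 136, and GRIA2 held 1 match to the NF-kappa-B consensus from base 170. Among windows not shown, GRIK4 held 1 and GRIK5 held 2 matches to the NF-kappa-B consensus. GC boxes numbered 3 in GRIK3, 4 in GRIK4 and 2 in GRIK5, and the windows of GRIK2 and GRM5 held no match. A match describes letters only. The GC content was 57.3% for GRIA1, 49.7% for GRIA4, 52.7% for GRM3 and 46.3% for GRIA2, below the median of 58.7% over all promoters. It was between 69% and 84.3% for the 4 kainate subunits GRIK2 to GRIK5. The GRIK2 window, from base 101393458, lies downstream of the deposited start at 101181257. Of the 10 genes, 9 matched a RefSeq promoter, and GRIA3 did not.

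Other receptors for glutamate changed in either direction. The list held 16 genes beside the 10, of which 12 were tested. Of these, 3 rose and 5 fell, while 4 were not called. Over all tested genes, 20.4% were higher and 19% lower in ITC. Counts of the lists that follow, markers included, stand beside the same shares, and no list was tested as a set. Their median log2 change was -0.47. GRM4, a metabotropic receptor that lowers cyclic AMP, rose the most. It had 295, 256 and 214 counts in ITC against 6, 6 and 8 in vehicle, a log2 change of 5.73 ± 0.30 (edgeR adjusted p = 1.85e-09), and all ITC libraries were far above vehicle. The NMDA receptor subunit GRIN2B fell by 2.86 ± 0.23, to 4.43 ± 1.02 CPM in ITC, against 32.4 ± 7.24 CPM in vehicle (SD, n = 3 each).

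GRIN2A, another NMDA receptor subunit, was at 31.7 ± 7.18 CPM in ITC and 31.8 ± 5.30 CPM in vehicle (log2 change -0.00, 95% interval -0.41 to 0.40, with its sign changing on leaving out single libraries). GRM8 was not called either (-0.73 ± 0.36, edgeR adjusted p = 0.121). It was called without vehicle replicate 3 (-1.08, adjusted p = 0.00979), with scaling by library size alone (-0.96, adjusted p = 0.0459) and with a replicate block (-0.71, adjusted p = 0.0497). GRIN1, the subunit that every NMDA receptor needs and a gene picked with its values known, had 1, 1 and 4 counts in ITC and 5, 22 and 2 in vehicle and was not tested. Further genes of the list were chosen after their values were seen. The NMDA subunits GRIN3A and GRIN2D rose by 2.37 ± 0.32 and 2.14 ± 0.29. The kainate subunit GRIK1 fell by 2.33 ± 0.33 and the delta receptor GRID1 fell by 1.95 ± 0.31.

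Auxiliary subunits, which set the trafficking and gating of AMPA and kainate receptors, included both falls and rises. Of 15 listed genes 13 had a row and 11 were tested, of which 6 fell and 2 rose, while 3 were not called. Their median log2 change was -0.92. NETO1, a partner of kainate receptors, had 891, 909 and 953 counts in ITC against 97, 86 and 169 in vehicle and rose by 3.49 ± 0.17 (edgeR adjusted p = 1.01e-09). Its relative NETO2, picked with its values known, fell by 1.03 ± 0.17, to 11.5 ± 1.05 CPM in ITC, against 23.6 ± 3.06 CPM in vehicle. The AMPA partners GSG1L and CACNG4 fell by 1.77 ± 0.28 and 1.44 ± 0.24. CACNG7 (-0.23 ± 0.18) and CNIH3 (-0.24 ± 0.37) were not called, although scaling by library size alone called CACNG7 (-0.46, adjusted p = 0.0421). The other gene that rose was CACNG8, chosen after its values were seen (0.64 ± 0.16), whose call was lost when libraries were scaled by size alone (adjusted p = 0.0571).

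**Figure D4:**
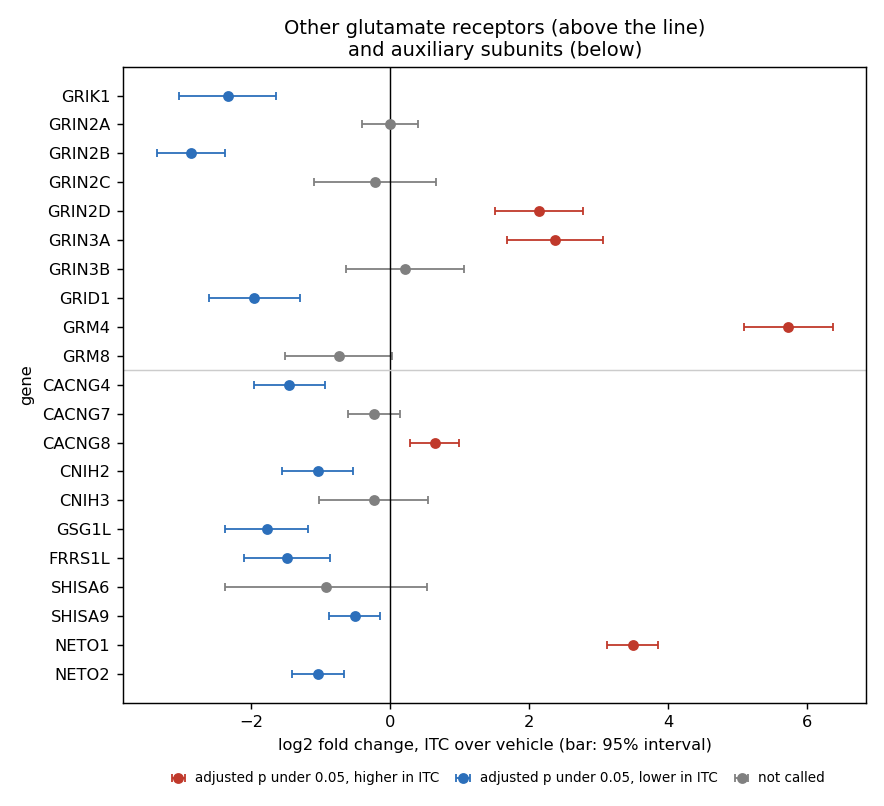
Log2 fold change of ITC over vehicle (horizontal axis, edgeR) with 95% intervals of 10 of the 12 tested other glutamate receptors and 11 tested auxiliary subunits, n = 3 libraries per group. GRM4 at 5.73 and NETO1 at 3.49 lie far to the right (red), and GRIN2B at -2.86 lies far to the left (blue).

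Among scaffolds and trafficking proteins of glutamate synapses, 15 of 16 were tested, of which 4 fell and 3 rose, while 8 were not called. With scaling by library size alone, 6 fell and 1 rose. The median log2 change was -0.18. NPTX2, a secreted pentraxin that gathers AMPA receptors, fell by 3.09 ± 0.22, to 57.9 ± 12.7 CPM in ITC, against 493.8 ± 108 CPM in vehicle (SD, n = 3 each). The scaffolds SHANK2 and DLG2 fell by 3.14 ± 0.27 and 1.38 ± 0.29. DLG1 (0.13 ± 0.16, negative under upper quartile scaling and library size alone) and DLG4 (-0.18 ± 0.15) were not called, although scaling by library size alone called DLG4 (-0.41, adjusted p = 0.0394). The adenosine deaminases ADARB1, which edits the Q/R site, and ADAR rose by 0.97 ± 0.15 and 0.69 ± 0.19. ADARB1 was at 34.5 ± 0.653 CPM in ITC and 17.6 ± 1.37 CPM in vehicle. The call of ADAR was lost with library size alone (adjusted p = 0.0621) and without vehicle replicate 2 (adjusted p = 0.0641), and ADARB2 was too low to be tested.

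Downstream of metabotropic receptors, all 13 listed genes were tested, of which 4 rose and 2 fell, while 7 were not called. Their median log2 change was 0.31. ITPR3, a calcium release channel of the endoplasmic reticulum, rose by 2.79 ± 0.18, to 108.4 ± 21.4 CPM in ITC, against 15.7 ± 0.991 CPM in vehicle (SD, n = 3 each). RGS4, which dampens G protein signals, fell by 1.86 ± 0.29. The phospholipase PLCB2 fell by 2.08 ± 0.34, to 0.930 ± 0.197 CPM in ITC, against 3.96 ± 0.596 CPM in vehicle. Its relatives on the list, picked with their values known, had more counts and did not fall. PLCB3 rose by 0.91 ± 0.19 and PLCB4 by 1.24 ± 0.22, and PLCB1 was not called (0.07 ± 0.16). The inhibitory G protein subunits GNAI2 (0.31 ± 0.17) and GNAI3 (-0.06 ± 0.15) were not called.

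The genes with the library profile most like that of GRIA1, by Euclidean distance of log2 CPM centered over the 6 libraries, were MAP7D2 (0.64), DEPDC1 (0.66) and FUT9 (0.69). For GRIA3 they were KLC1 (0.15), MT-TH (0.17) and CLIC2 (0.18). KLC1 shares 40.6% of its exon bases with other genes.

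Markers of several cell types were lower in the same libraries as GRIA1, GRIA4 and GRM3, and in bulk RNA fewer cells of a type and less RNA per cell cannot be told apart. Astrocyte markers were present in every library, with a summed level of 515 to 570 CPM in ITC and 999 to 1121 CPM in vehicle. Of the 7, 6 fell, and GFAP was not called. Of 13 neuron markers, 10 were tested, 5 of which fell and 5 did not pass the test, with sums of 276 to 375 CPM in ITC and 815 to 1060 CPM in vehicle, led by MAP2 and DCX. GAD2, which makes the inhibitory transmitter GABA and was singled out after its values were seen, had 0, 1 and 0 counts in ITC against 19, 31 and 41 in vehicle. Its relative GAD1, picked in the same way, had 11, 27 and 64 counts in ITC against 66, 82 and 128 in vehicle. GAD1 was not called (log2 change -0.93 ± 0.45, edgeR adjusted p = 0.121), and its groups overlapped. Among further genes picked with their values known, the neuronal vesicular glutamate transporters were near 0, with at most 6 counts of SLC17A6 and 5 of SLC17A7 in any library. Of 9 oligodendrocyte lineage markers, 6 were tested, 3 fell and 3 rose, with sums of 90.7 to 101 CPM in ITC and 298 to 363 CPM in vehicle. All 6 proliferation markers fell, with sums of 76.7 to 87.6 CPM in ITC and 558 to 570 CPM in vehicle. Of 7 neural progenitor markers 6 fell and 1, VIM, rose, with sums of 3126 to 3814 CPM in ITC and 3084 to 3809 CPM in vehicle. Of 5 mesenchymal markers 2 fell and 1 rose, with sums of 303.1 to 401 CPM in ITC and 314 to 359 CPM in vehicle. Microglia markers stayed at sums of 0.554 to 1.18 CPM in ITC and 0.433 to 0.68 CPM in vehicle, and none was tested. Of these, AIF1 had no count in ITC and 0, 0 and 4 counts in vehicle. CSF1R had 18, 8 and 16 counts in ITC against 4, 4 and 8 in vehicle. Both genes were picked with their values known. The part of these cell types in the receptor results was not tested.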

How the data were processed

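RNA-seq counts of 6 libraries, 3 ITC and 3 vehicle, were analysed, grouped and numbered by the sample titles. Per the labels' protocols, RNA was purified on columns with DNase treatment and libraries were poly-A selected. The authors deposited raw counts per gene, normalized signal (counts divided by a size factor per library, tested on the values), FPKM per listed gene length, and log2 fold changes of vehicle over ITC with p-values, per the file headers. GRCh38 (hg38) and DESeq2 are named in the submitters' processing notes. Aligner, counter and strand setting: not given in the sources used here. Listed gene coordinates were those of GENCODE 29.

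The test was edgeR 4.0.16 on the counts, in R 4.3.3 (filterByExpr, TMM, quasi-likelihood test without covariates, Benjamini-Hochberg over all 16756 tested genes, threshold 0.05). The SE is the log2 change divided by the square root of F. CPM use TMM factors of 0.886 to 0.953 in ITC and 1.07 to 1.10 in vehicle. 1 count equals 0.0309 to 0.0606 CPM. Within each group, replicate libraries were further apart than sampling noise, with a chi-square of at least 10.4 per degree of freedom. Separate capsule batches were each split between treatments, per the series description, which does not tie replicate numbers to batches. The receptor genes and gene lists were chosen with earlier results of these data known. Named genes are the 10 receptors, and from each list of related genes up to 3 called genes by smallest p and up to 2 uncalled ones by highest CPM. From marker lists they are up to 3 genes with the highest CPM. For the called receptors with the largest fall and rise, they are the 3 nearest library profiles. Others are named as chosen after their values were seen, and a few genes that fall under these rules are not reported here. On simulated counts of 16756 genes in 6 libraries, the test recovered 69% of 100 genes with a 2-fold change and 94% of 100 with a 4-fold change, and called 10 unchanged genes. All other genes were simulated without a change, and their spread followed expression level and not the single gene. In the data 39.4% of tested genes were called, so these rates need not hold there. Alternatives were other scalings and filters, DESeq2 1.42.0, limma-voom and limma 3.58.1 on log2 FPKM with pseudocounts 1 and 0.1, a replicate block, leaving out each library and, added after seeing the data, a threshold of 0.01. Figures used matplotlib 3.10.9.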

Additional observations from a re-analysis of the deposited data

How the results depend on the processing

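The 3 falls (GRIA1, GRIA4 and GRM3) were called in each of the 16 other analyses at the 0.05 threshold, and also at 0.01. The count of 1 receptor gene higher in ITC, which is GRIA3, was less firm. It was 0 with DESeq2 size factors, upper quartile scaling, library size alone, no filter on low counts, a filter that asks for 1 CPM in 3 libraries, DESeq2, limma on log2(FPKM + 1) or log2(FPKM + 0.1), and a threshold of 0.01, and ranged from 0 to 2 on leaving out single libraries. Genes lower in ITC numbered 3176 of all tested, against 4801 with library size alone and 2082 at 0.01. Over all genes the median log2 change was -0.01, against -0.16 with upper quartile scaling and -0.24 with library size alone. With library size alone, the genes that rose numbered 1 among auxiliary subunits, 1 among scaffolds and 1 among adenosine deaminases. Signs that changed, all of genes not called, were those of GRIA2 (-0.042 with library size alone, -0.030 to 0.40 on leaving out single libraries), DLG1 (-0.0091 with upper quartile scaling, -0.091 with library size alone) and, on leaving out single libraries, GRIN2A (-0.18 to 0.15), GNAI3 (-0.12 to 0.036) and CNIH3 (-0.56 to 0.10). The cause was not tested.

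The main fit did not pair libraries by replicate number, and whether the numbers mark pairs is not settled. Deviations of same-numbered libraries correlated at 0.268, 0.00733 and 0.384 for numbers 1, 2 and 3. Libraries of different number correlated at -0.338 to 0.0697. Numbers 1 and 3 thus matched their own number best, while ITC replicate 2 correlated at -0.0409 to 0.0374 with each vehicle library. Deviations from the mean of a group of 3 are tied to each other. These correlations are therefore not independent and cannot settle whether the numbers mark pairs. With a replicate block, 2 receptor genes were higher in ITC and 4 were lower, while calls over all tested genes rose from 6599 to 8416. GRIK2 (0.48, adjusted p = 0.0476), GRIK3 (-0.66, adjusted p = 0.00448), GRM8 (-0.71, adjusted p = 0.0497) and GNAI2 (0.31, adjusted p = 0.0216) were then called. Low counts limit GRIK5 and GRM5.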
